A study of Mus musculus with 12 samples.

Results

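The nuclear genes for the subunits of mitochondrial oxidative phosphorylation were followed in the livers of 12 mice that differed in Keap1 genotype and in treatment with the Nrf2 activator CDDO-Im. Genes were taken by symbol: those beginning with Nduf, Uqcr, Cox4 to Cox8 or Atp5, together with Sdha, Sdhb, Sdhc, Sdhd and Cyc1, where a probe set named that gene alone. This gave 91 genes of the 18193 that had a probe set of their own. They were 34 subunits of complex I, 8 complex I assembly factors, 4 subunits of complex II, 9 of complex III, 19 of complex IV and 17 of complex V. Ndufa4, first described in complex I, was placed with complex IV. Probe sets that match several genes were set aside, so Ndufa11 and Ndufs6, for example, were not analysed here as single genes.

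All mice were C57BL/6J males aged 9 weeks, 3 in each of 4 groups, and each liver gave 1 Affymetrix array. The conditional knockout (CKO) mice were Albumin-Cre:Keap1(flox/-) and the genetic controls (WT) were Alb-Cre:Keap1(flox/+). Both genotypes therefore carried the Cre transgene, which the albumin promoter drives in hepatocytes, and 1 floxed Keap1 allele that Cre can delete. The CKO mice also carried a null allele in every cell. Treated mice received CDDO-Im, a synthetic triterpenoid, by gavage at 30 umol per kg, and vehicle mice received the solvent alone (DMSO, Cremophor-EL and PBS). Livers were taken after 6 h. The values are log2 array signals, and a change is a difference of log2 group means, tested with limma over 8338 genes and called at a Benjamini-Hochberg adjusted p under 0.05. Whether the mice of a group came from separate litters or cages is not stated, so p-values measure the spread between these 12 livers.

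Oxidative phosphorylation runs in the inner mitochondrial membrane. Complexes I and II feed electrons from NADH and succinate to coenzyme Q, complex III passes them to cytochrome c, and complex IV reduces oxygen. Complexes I, III and IV pump protons, and complex V, the ATP synthase, makes ATP as the protons flow back. Most subunits are encoded in the nucleus and are known to be driven by nuclear respiratory factor 1 and by Ets factors such as GABP. Hepatocytes are rich in mitochondria and use this ATP for gluconeogenesis and urea synthesis. Keap1 holds Nrf2 down by targeting it for degradation, and Nrf2 acts through antioxidant response elements (AREs) in genes of detoxification and of glutathione and NADPH supply.

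Promoters of 4 members are shown because the values below turn on them or because they carry the motifs searched. Each is the 250 bases before the RefSeq gene start (build GRCm38.p6, minus strand of the chromosome, written 5' to 3'), with motif matches on either strand in capitals. Ndufa8 (chr2:36049339-36049588), the member with the smallest adjusted p, has 1 match to the nuclear respiratory factor 1 motif. Cox6a1 (chr5:115348959-115349208) has 2 such matches and 1 to the Ets motif CCGGAAG. Sdha (chr13:74350241-74350490) has 3 nuclear respiratory factor 1 matches, and Ndufv2 (chr17:66101560-66101809) has 1 match to the ARE core TGACNNNGC.
Ndufa8: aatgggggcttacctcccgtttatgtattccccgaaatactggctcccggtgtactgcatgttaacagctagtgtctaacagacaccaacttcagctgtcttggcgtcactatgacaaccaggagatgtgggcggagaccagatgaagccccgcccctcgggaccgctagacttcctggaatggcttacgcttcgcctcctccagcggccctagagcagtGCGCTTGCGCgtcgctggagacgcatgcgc
Cox6a1: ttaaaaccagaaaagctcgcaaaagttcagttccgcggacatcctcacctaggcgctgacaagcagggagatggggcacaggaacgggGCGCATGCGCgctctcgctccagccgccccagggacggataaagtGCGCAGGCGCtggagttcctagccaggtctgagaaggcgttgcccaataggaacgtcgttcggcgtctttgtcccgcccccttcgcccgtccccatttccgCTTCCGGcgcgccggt
Sdha: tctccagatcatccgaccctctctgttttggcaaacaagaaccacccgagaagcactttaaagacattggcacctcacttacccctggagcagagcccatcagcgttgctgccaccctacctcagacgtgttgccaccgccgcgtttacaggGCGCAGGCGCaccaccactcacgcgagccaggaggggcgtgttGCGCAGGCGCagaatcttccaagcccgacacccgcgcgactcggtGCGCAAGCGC
Ndufv2: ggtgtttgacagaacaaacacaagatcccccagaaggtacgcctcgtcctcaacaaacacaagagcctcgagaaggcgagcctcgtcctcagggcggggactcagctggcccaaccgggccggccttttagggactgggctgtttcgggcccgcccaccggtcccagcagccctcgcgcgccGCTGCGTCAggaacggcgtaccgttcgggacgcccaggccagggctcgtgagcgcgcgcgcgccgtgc

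Windows of 300 bases, from 250 before to 50 after the start, were held for 74 of the 91 genes, 79 windows in all. The nuclear respiratory factor 1 motif was in 18 of them (22.8%) against 4.6% of all 32851 RefSeq windows, and the Ets motif was in 19 (24.1%) against 8.86%. The ARE core was in 11 windows (13.9%) against 12.4% of all windows. Of the 79 windows, 4 held both of the first 2 motifs. These are matches of letters and say nothing about binding. Of the 10 genes with an ARE core, all 10 were tested and 0 were called (limma) in CKO vehicle or in WT CDDO-Im against WT vehicle, where 6.51% and 3.65% of all genes were. Their changes ran from -0.15 to 0.28 in CKO vehicle and from -0.19 to 0.13 in WT CDDO-Im.

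The arrays had medians of 2.32 to 2.34, and replicates correlated at 0.9958 or above. Keap1 was first read as a check of the labels. On 1 of its probe sets the 6 CKO livers read 2.74 to 3.31 and the 6 WT livers 7.92 to 8.89. On the other the CKO livers read 6.15 to 6.51 and the WT livers 6.58 to 8.08, so genotypes did not overlap on either. The labels do not place these probe sets relative to the deleted part. The Nrf2 target Nqo1, a quinone reductase, rose by 4.86 in CKO vehicle and by 3.45 in WT CDDO-Im against WT vehicle (limma, adjusted p = 4.55e-05 and 0.000934). Gclc, the catalytic subunit of the first enzyme of glutathione synthesis, rose 2.21-fold and 2.83-fold (limma, adjusted p = 0.000311 and 0.000333). Of 9 Nrf2 targets used as a check, 7 were called higher in CKO vehicle and 9 in WT CDDO-Im.

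The filter before testing asked for a signal above 5 on 3 or more arrays, and 80 of the 91 members passed it, 79 of them on every array. Mean signals were 10.33 to 14.21 in complex I, 11.69 to 14.17 in complex II, 12.46 to 15.50 in complex III and 11.23 to 15.06 in complex V. In complex IV they ran from 4.82, that of Cox6b2, to 15.06. Those of the complex I assembly factors were 7.34 to 11.11. The highest value on an array was 16.7 to 17, and whether signals near that end are compressed was not tested. Signals of different genes depend on their probes, so these levels rank nothing between genes.

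The members that did not pass were 11: Cox4i2, Cox6a2, Cox7a1, Cox7b2, Cox7c, Cox8b, Cox8c, Ndufa4l2, Ndufaf5, Ndufb1 and Ndufb4. Most of the complex IV genes among them are the isoforms known from other tissues. Cox6a2, Cox7a1 and Cox8b, the heart and muscle forms, lay at 2.22 in all 12 livers, at 2.29 to 2.68 and at 2.22, and Cox4i2, the lung form, at 2.22. Their ubiquitous counterparts were bright in every liver: Cox6a1 at 14.49 to 14.83, Cox7a2 at 14.55 to 14.76, Cox8a at 14.70 to 15.19 and Cox4i1 at 13.85 to 14.06. Of 10 skeletal and cardiac muscle markers, 0 exceeded 5 in any liver. Cox7c and Ndufb4, which are subunits in all tissues, read 2.61 to 2.99 and 2.22 on the only or brightest probe set naming them alone.

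In vehicle-treated CKO livers the subunit genes read close to the control livers. The arrays measured whole liver, where fewer cells of a type and less RNA per cell cannot be told apart. Of the 80 tested members, 0 were called in CKO vehicle against WT vehicle, where 6.51% of all genes were, and 3 had an unadjusted p under 0.05 (all genes 22.2%). The smallest adjusted p was 0.135, that of Ndufaf1. The median change was -0.0066 over the members and -0.0056 over all genes, and single changes ran from -0.29 (Cox6b2) to 0.28 (Ndufaf3). For 78 of the 80, the 95% interval of the change lay within 1.5-fold in either direction, against 66.4% of all genes. Groups did not overlap for 8 members, 4 higher and 4 lower, against 26.3% of all genes (13% higher and 13.3% lower).

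In WT mice given CDDO-Im, 0 members were called against WT vehicle, where 3.65% of all genes were, and 4 had an unadjusted p under 0.05 (all genes 19.6%). The median change was -0.0015, against -0.0241 over all genes. The 95% interval lay within 1.5-fold for 79 of the 80 members (68.4% of all genes), with Cox6b2 the exception. Groups did not overlap for 10 members, 3 higher and 7 lower (23.3% of all genes, 10.1% higher and 13.1% lower). Both comparisons use the same 3 WT vehicle livers, so their values are set side by side and not correlated. A 95% interval here covers 1 gene and is not adjusted for the number of genes.

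**Figure D1:**
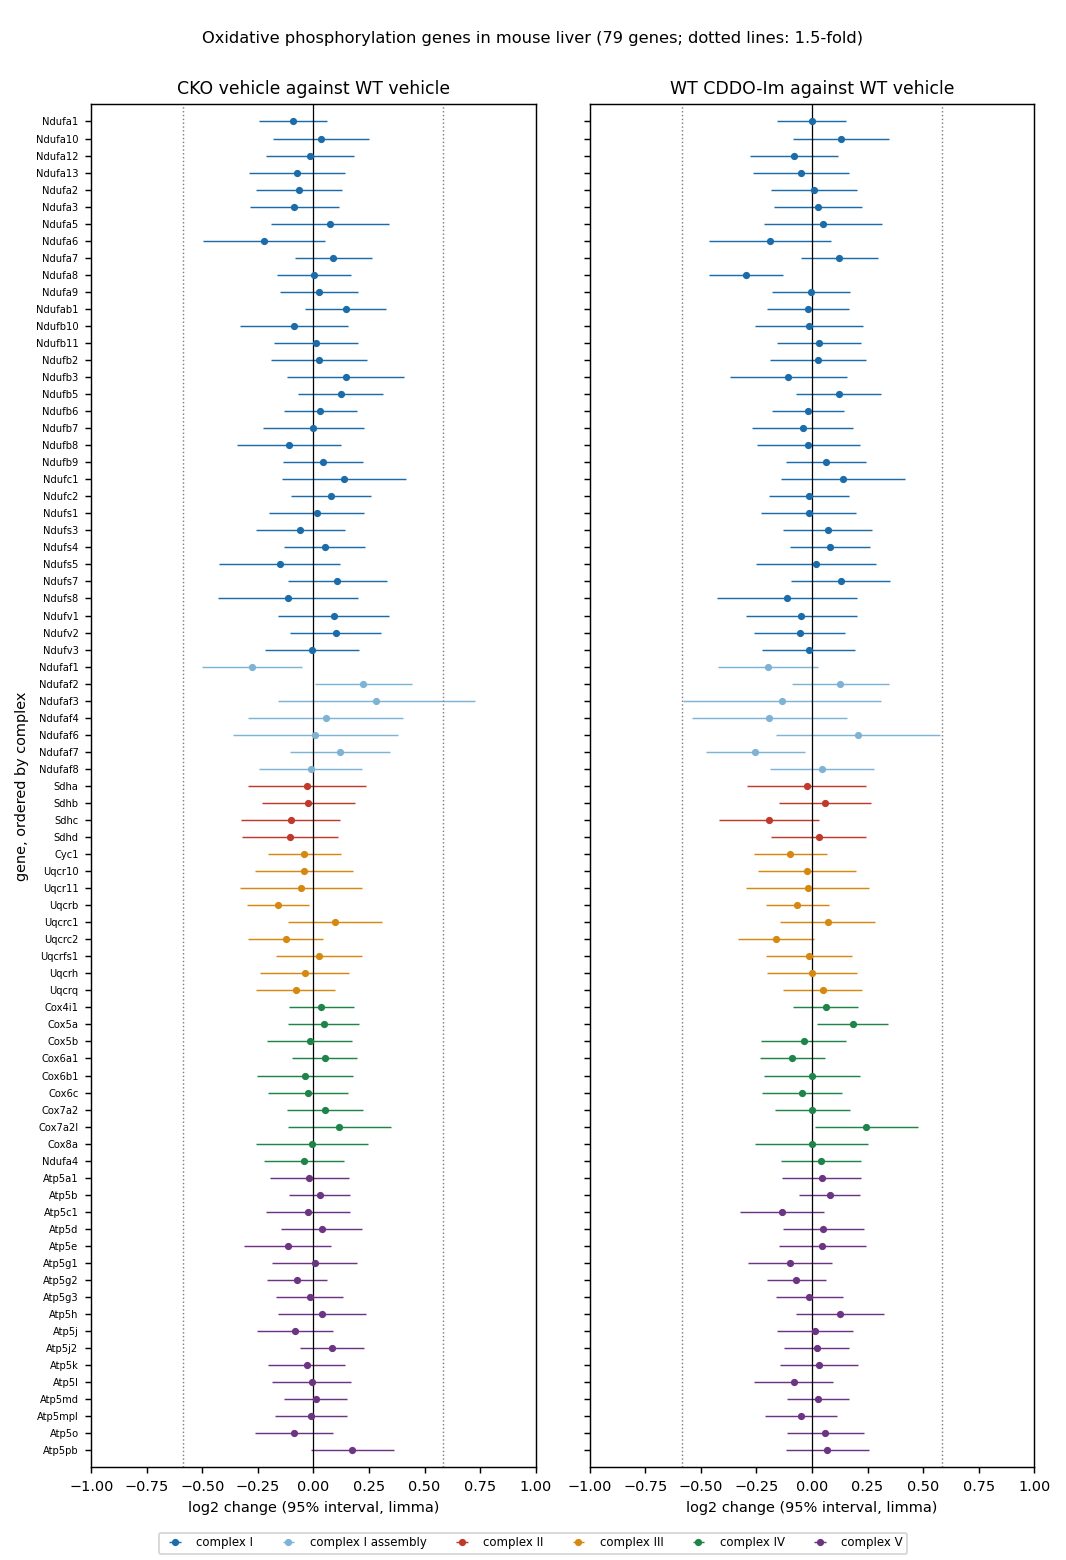
Log2 change of each of 79 tested oxidative phosphorylation genes with its 95% interval from limma, by complex, in CKO vehicle (left) and WT CDDO-Im (right) against WT vehicle, 3 livers a group. Dotted lines mark 1.5-fold, and the interval of Ndufaf3 on the left is the one that crosses them. Cox6b2 is left out because its intervals, -4.17 to 3.59 and -2.00 to 5.76, would set the scale.

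The other comparisons gave 1 call. In CKO mice, CDDO-Im against vehicle called 0 members and 0 genes of the 8338 (0%), with 2 members at an unadjusted p under 0.05 (all genes 9.47%). Groups did not overlap for 3 higher and 2 lower members, against 14.6% of all genes (5.18% higher and 9.4% lower). CKO CDDO-Im against WT CDDO-Im called 0 members (1.54% of all genes), with 3 at an unadjusted p under 0.05, all higher (16.8%). Groups did not overlap for 8 higher members and 1 lower, against 22.7% of all genes (10.4% higher and 12.2% lower). Averaged over treatments, CKO against WT called 0 members (10.6% of all genes, 5.09% higher and 5.47% lower), with 6 higher and 2 lower at an unadjusted p under 0.05 (27%). Averaged over genotypes, CDDO-Im against vehicle called Ndufa8, which fell, and no other member (2.46% of all genes, 1.26% lower). The interaction of genotype and treatment called 0 members (0.276% of all genes), with 1 at an unadjusted p under 0.05 (10.3%). Intervals lay within 1.5-fold for 78, 79, 79, 79 and 73 of the 80 in these 5 comparisons, against 73.8%, 69.9%, 81.5%, 84.2% and 49.5% of all genes.

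Complex I oxidises NADH at the tip of its peripheral arm and pumps protons through its membrane arm. Ndufa8, an accessory subunit on the intermembrane side, was its only called member. Its log2 signal in vehicle livers was 13.44, 13.56 and 13.56 for WT and 13.54, 13.57 and 13.48 for CKO mice. With CDDO-Im it was 13.19, 13.23 and 13.26 for WT and 13.27, 13.45 and 13.23 for CKO mice. Treated livers lay below vehicle livers within each genotype without overlap, although CKO CDDO-Im 3 reached the level of WT vehicle 1. Over both genotypes Ndufa8 fell by 0.25 (SE 0.053, 95% interval -0.37 to -0.13, adjusted p = 0.0394), a 1.19-fold difference. Within a genotype the change was -0.30 (adjusted p = 0.0582) in WT and -0.21 (adjusted p = 0.482) in CKO mice, and the interaction was 0.089 (adjusted p = 0.81). The call was lost without any 1 of 9 livers (adjusted p = 0.0664 to 0.0897), namely vehicle livers WT 2, WT 3, CKO 3 and CKO 4 or treated livers WT 2, WT 3, WT 4, CKO 2 and CKO 4. It was also lost with arrays centred on their medians (adjusted p = 0.0577) and without the filter (adjusted p = 0.0587).

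The core subunits of complex I carry the flavin and the iron-sulfur clusters. Ndufs1, which holds several of those clusters, differed by 0.015 in CKO vehicle (95% interval -0.20 to 0.23) and by -0.015 in WT CDDO-Im (-0.23 to 0.20). In WT livers Ndufv1, which binds NADH, read 12.44, 12.22 and 12.21 with vehicle and 12.18, 12.30 and 12.24 with CDDO-Im. In CKO livers it read 12.22, 12.55 and 12.38 with vehicle and 12.58, 12.69 and 12.35 with CDDO-Im. The CKO CDDO-Im livers thus lay above the WT CDDO-Im livers, by 0.30 (SE 0.11, adjusted p = 0.224), while the vehicle groups overlapped. This was the largest difference of a complex I gene between the 2 treated genotypes.

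Among accessory subunits, Ndufa6 had the largest difference in CKO vehicle. Its vehicle livers read 12.64, 12.72 and 12.63 (WT) and 12.55, 12.49 and 12.29 (CKO), and its treated livers 12.17, 12.62 and 12.63 (WT) and 12.42, 12.58 and 12.50 (CKO). The WT vehicle livers stood above the others, but WT vehicle 3 (12.6343) only barely above WT CDDO-Im 4 (12.6315). The difference of -0.22 in CKO vehicle did not pass (limma, SE 0.12, adjusted p = 0.329). Ndufb3 was 0.20 higher in CKO than in WT livers averaged over treatments (SE 0.084, adjusted p = 0.16). Ndufs8, an iron-sulfur subunit, had the largest interaction in complex I, 0.25 (95% interval -0.19 to 0.70, adjusted p = 0.709). Over the 32 tested subunits the median change was 0.019 in CKO vehicle (range -0.22 to 0.15) and -0.0088 in WT CDDO-Im (-0.30 to 0.14), and all 32 intervals lay within 1.5-fold in both.

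Ndufab1, the mitochondrial acyl carrier protein, is a case where probe sets of 1 gene disagreed. Its brightest probe set read 11.86 to 12.28 across the livers, and its change in WT CDDO-Im was -0.018 (adjusted p = 0.942). On a dimmer one the WT livers read 9.55, 9.49 and 8.51 with vehicle and 8.42, 7.93 and 7.54 with CDDO-Im. The CKO livers read 8.44, 8.45 and 8.35 with vehicle, and 8.45, 8.62 and 8.41 with CDDO-Im. On this probe set WT CDDO-Im lay below WT vehicle without overlap, by 1.22, which limma called when every probe set was tested separately (adjusted p = 0.037). Of 42 members with several probe sets past the filter, 29 had changes of 1 sign in CKO vehicle and 24 in WT CDDO-Im, and the median gap between a gene's probe sets was 0.062 and 0.094. Ndufab1 had the widest gap in both, 0.91 and 1.20.

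The Ndufaf assembly factors insert cofactors and join modules of complex I, and 7 of the 8 were tested. Ndufaf1, which acts in building the membrane arm, read 9.78, 9.67 and 9.65 in WT vehicle and 9.32, 9.66 and 9.29 in CKO vehicle. The groups overlapped in 1 CKO liver, and the difference was -0.28 (SE 0.101, adjusted p = 0.135). Leaving out that liver, CKO vehicle 4, removed the overlap and gave a call (limma, -0.39, adjusted p = 0.0278). Because the liver left out is the contrary one, this fit lends no weight to a fall. No other fit without 1 liver called Ndufaf1 in this comparison. Ndufaf2, a late assembly factor, read 7.17, 7.26 and 7.20 in WT vehicle and 7.53, 7.32 and 7.45 in CKO vehicle, without overlap, and the difference of 0.22 did not pass (adjusted p = 0.212). Ndufaf7, a methyltransferase for a core subunit, read 7.62, 7.71 and 7.74 in WT livers with vehicle and 7.27, 7.49 and 7.54 in those with CDDO-Im, a difference of -0.26 (SE 0.10, adjusted p = 0.197). Treated CKO livers were 0.27 above treated WT livers (SE 0.10, adjusted p = 0.218). The median of the 7 assembly factors was 0.054 in CKO vehicle (range -0.28 to 0.28) and -0.13 in WT CDDO-Im (-0.26 to 0.21).

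Ndufaf3 was, beside Cox6b2, the member whose interval reached past 1.5-fold in comparisons of 2 groups. Its vehicle livers read 8.80, 8.61 and 8.81 (WT) and 8.81, 8.95 and 9.30 (CKO), and its treated livers 8.23, 8.84 and 8.75 (WT) and 8.34, 8.98 and 8.65 (CKO). The difference was 0.28 in CKO vehicle (95% interval -0.16 to 0.73, adjusted p = 0.445). CDDO-Im in CKO mice gave -0.37 (-0.81 to 0.076, adjusted p = 0.6). In both treated groups liver 2 was the lowest, and neither change passed.

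Complex II, succinate dehydrogenase, is also an enzyme of the tricarboxylic acid cycle. Sdha, the flavoprotein, read 13.75, 13.59 and 13.39 (WT) and 13.51, 13.73 and 13.39 (CKO) with vehicle, and 13.44, 13.66 and 13.56 (WT) and 13.85, 13.76 and 13.60 (CKO) with CDDO-Im. All groups overlapped, and CKO CDDO-Im was 0.19 above both CKO vehicle (SE 0.12, adjusted p = 0.651) and WT CDDO-Im (SE 0.12, adjusted p = 0.472). Another probe set of Sdha gave 0.12 and -0.099 in these comparisons. Sdhb, the iron-sulfur subunit, differed by -0.023 in CKO vehicle (95% interval -0.23 to 0.18) and by 0.058 in WT CDDO-Im (-0.15 to 0.27). The membrane anchors Sdhc and Sdhd gave -0.19 in treated WT livers (SE 0.10, adjusted p = 0.329) and -0.10 in CKO vehicle (SE 0.097, adjusted p = 0.571), the largest of this complex in each comparison. All 4 subunits had changes below 0 in CKO vehicle (-0.10 to -0.023), and 2 of the 4 in WT CDDO-Im (4273 and 4593 of all 8338 genes). With CDDO-Im in CKO mice 3 of the 4 were above 0. Sdhc also had an interaction of 0.28 (95% interval -0.035 to 0.60, adjusted p = 0.543), which was 0.055 on its other probe set.

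Complex III carries electrons from coenzyme Q to cytochrome c. In WT livers Uqcrb, a small subunit that binds near the quinone site, read 15.57, 15.66 and 15.55 with vehicle and 15.54, 15.54 and 15.51 with CDDO-Im. The CKO livers read 15.36, 15.47 and 15.47 with vehicle and 15.43, 15.48 and 15.42 with CDDO-Im. All 6 CKO livers lay below all 6 WT livers, by 0.12 averaged over treatments (SE 0.045, adjusted p = 0.115), which did not pass. The vehicle groups alone differed by -0.16 (SE 0.064, adjusted p = 0.169). The other probe set of Uqcrb gave -0.079 and -0.023 in these comparisons. Limma with a mean-variance trend and robust prior called Uqcrb (adjusted p = 0.0449). The 95% interval of the average difference ran from -0.22 to -0.021.

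Of the 9 genes of complex III, 7 had changes below 0 in CKO vehicle (median -0.044) and 7 in WT CDDO-Im (median -0.020). Of all 8338 genes 4273 and 4593 did, and both comparisons use the same WT vehicle livers. With CDDO-Im in CKO mice 8 of the 9 were above 0, and 6 were in CKO CDDO-Im against WT CDDO-Im. Cyc1, cytochrome c1, gave -0.042 in CKO vehicle (95% interval -0.21 to 0.12) and -0.097 in WT CDDO-Im (-0.26 to 0.068). Uqcrfs1, the Rieske protein, gave 0.025 (-0.17 to 0.22) and -0.014 (-0.21 to 0.18). The core proteins split on their brightest probe sets: Uqcrc1 gave 0.097 and 0.071, and Uqcrc2 gave -0.13 and -0.16. None of these passed (limma, adjusted p from 0.278 to 0.742). The other probe set of Uqcrc2 gave -0.071 and 0.042. Uqcrc2 had the only interaction with an unadjusted p under 0.05 among the members, 0.26 (SE 0.11, adjusted p = 0.46). It read 12.92 to 12.95 in WT CDDO-Im and 13.04 to 13.09 in CKO CDDO-Im, without overlap and 0.13 apart. Its other probe set gave -0.085 between these groups and an interaction of -0.0135. Uqcr11 had the largest changes of the complex with CDDO-Im in CKO mice, 0.20 (SE 0.12, adjusted p = 0.647).

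The nuclear subunits of complex IV surround a mitochondrially encoded core. Cox6a1 in WT livers read 14.66, 14.65 and 14.60 with vehicle and 14.49, 14.56 and 14.60 with CDDO-Im. In CKO livers it read 14.65, 14.74 and 14.67 with vehicle and 14.83, 14.81 and 14.70 with CDDO-Im. Treated CKO livers lay above treated WT livers without overlap, by 0.23 (SE 0.066, adjusted p = 0.115), while the vehicle groups overlapped. Its other probe set gave 0.16. Averaged over treatments the difference was 0.14 (95% interval 0.037 to 0.24, adjusted p = 0.0838). Quantile normalization gave 0.19 and a call (adjusted p = 0.0217), as did the mean-variance trend and robust prior (adjusted p = 0.0382).

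Cox5a, a subunit on the matrix side, read 14.36, 14.39 and 14.38 in WT livers with vehicle and 14.45, 14.64 and 14.59 in those with CDDO-Im. The groups did not overlap, and the difference was 0.18 (SE 0.072, adjusted p = 0.192). Its other 2 probe sets gave 0.0032 and 0.010 in the same comparison. Cox7a2l, described as a factor linking complexes III and IV into supercomplexes, read 11.19, 11.26 and 11.22 in the same vehicle livers. In the treated ones it read 11.32, 11.50 and 11.59, a difference of 0.24 (limma, SE 0.10, adjusted p = 0.232). Its other probe sets gave 0.13 and 0.17. Supercomplexes were not measured. In CKO mice the same treatment gave 0.062 for Cox5a and 0.014 for Cox7a2l, and the interactions did not pass (adjusted p = 0.722 and 0.64). Cox4i1, the liver form of subunit IV, differed by 0.034 in CKO vehicle (95% interval -0.11 to 0.18) and by 0.061 in WT CDDO-Im (-0.085 to 0.21). Cox6b1, Cox7a2 and Cox8a differed by -0.040, 0.053 and -0.0073 in CKO vehicle, and by -0.0013, 0.0024 and -0.0019 in WT CDDO-Im.

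Cox6b2, the testis form of subunit VIb, was the 1 tested member below 5 on some arrays. Vehicle livers read 2.33, 2.72 and 7.46 (WT) and 5.58, 3.43 and 2.63 (CKO), and treated livers 2.63, 7.69 and 7.82 (WT) and 2.78, 6.55 and 6.22 (CKO). Every group held at least 1 liver near the floor and 1 above 5, so no group stood apart. The standard error of a difference between 2 groups was 1.75, against a median of 0.0888 over the members, and it passed in no comparison (adjusted p from 0.526 to 0.964). Over the 11 tested genes of complex IV the median change was -0.0073 in CKO vehicle and 0.0024 in WT CDDO-Im. The ubiquitous counterpart Cox6b1 read 14.19 to 14.55 in the same livers.

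Complex V joins the catalytic F1 head to the proton channel in the membrane. Atp5b, the catalytic beta subunit, differed by 0.027 in CKO vehicle (95% interval -0.11 to 0.16) and by 0.080 in WT CDDO-Im (-0.057 to 0.22). Atp5a1, the alpha subunit, gave -0.018 (-0.20 to 0.16) and 0.044 (-0.13 to 0.22) on its brightest probe set. Another bright one gave -0.027 and -0.040. A dimmer one, with a mean of 6.78, gave -0.11 and -0.52, the latter not called (limma on every probe set, adjusted p = 0.0874). Atp5pb, in the stator that holds the head, read 12.72, 12.65 and 12.76 (WT) and 12.76, 13.01 and 12.88 (CKO) with vehicle. With CDDO-Im it read 12.65, 12.83 and 12.85 (WT) and 12.99, 12.95 and 12.89 (CKO). CKO livers lay above WT livers within each treatment, by 0.17 on average (95% interval 0.037 to 0.30, limma adjusted p = 0.098), which did not pass. With vehicle the separation was slight, with WT vehicle 3 at 12.7600 and CKO vehicle 3 at 12.7617. The other probe set of Atp5pb past the filter gave 0.021 for the same average and -0.044 between the treated genotypes. Atp5c1, the rotating gamma subunit, gave -0.13 in WT CDDO-Im (SE 0.085, adjusted p = 0.436) and Atp5e gave 0.20 with CDDO-Im in CKO mice (SE 0.089, adjusted p = 0.526). The median of the 17 genes was -0.010 in CKO vehicle (range -0.12 to 0.17) and 0.028 in WT CDDO-Im (-0.13 to 0.13).

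**Figure D2:**
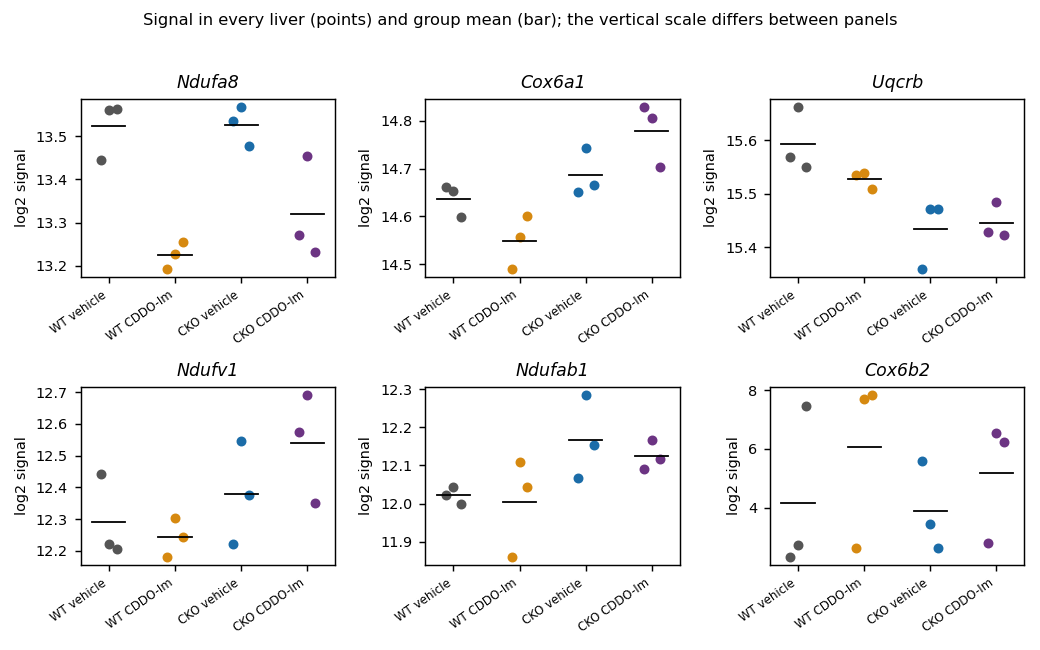
Log2 signal in every liver (points) with the group mean (bar) for 6 members, each panel on its own scale, which does not start at 0. Ndufa8 is lower in the treated groups, all 6 CKO livers are lower for Uqcrb, and Cox6b2 runs from 2.33 to 7.82 with no group apart.

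Subunit genes varied little between livers of a group. Their median residual SD was 0.0985 against 0.163 over all genes tested, and among genes with a mean of 10 or more it was 0.0945 for 74 members and 0.14 for the 2365 others. The median range over the 12 livers was 0.34 for the members and 0.65 for all genes. The livers also differed in the level of the set as a whole. The median member deviated from its own 12-liver mean by -0.082 in WT vehicle 3, -0.066 in CKO vehicle 3 and -0.067 in WT CDDO-Im 2, and by 0.091 in CKO CDDO-Im 3. In that last liver 71 of the 80 members were above their own mean, against 15 in WT CDDO-Im 2. Over all genes tested the same medians ran from -0.031 to 0.044. High and low livers occurred within single groups. The part of RNA quality or of the array in these shifts was not tested.

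**Figure D3:**
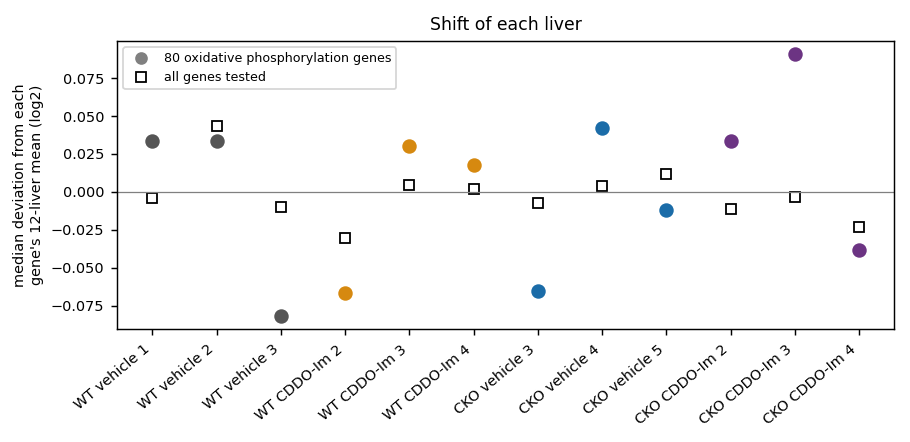
Median deviation from each gene's 12-liver mean (log2) in every liver, for the 80 tested oxidative phosphorylation genes (circles, coloured by group) and for all genes tested (squares). The circles run from -0.082 to 0.091 and spread within each group of 3 livers.

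Genes around the chain were taken from lists of the same pathway. Of 20 tested genes of electron carriers and coenzyme Q synthesis, 2 were called higher and 1 lower in CKO vehicle against WT vehicle, and 1 was called lower in WT CDDO-Im. Of all genes, 3.25% were called higher and 3.26% lower in the first comparison, and 1.88% and 1.76% in the second. Gpd2, the mitochondrial glycerol phosphate dehydrogenase that passes electrons to coenzyme Q, read 11.40, 11.12 and 10.85 in WT livers with vehicle and 9.70, 9.34 and 9.03 in those with CDDO-Im. It fell by 1.77 with CDDO-Im (SE 0.24, adjusted p = 0.00399). Livers of CKO mice read 10.00, 10.61 and 9.79 with vehicle and 9.35, 9.71 and 9.81 with CDDO-Im, all below the WT vehicle livers. In CKO vehicle Gpd2 fell by 0.99 (SE 0.24, adjusted p = 0.0357), a call lost without any 1 of 6 livers (up to 0.122), namely vehicle livers WT 1, WT 2, CKO 3 and CKO 5 or treated livers WT 3 and CKO 3. Coq8b, a kinase-like protein of coenzyme Q synthesis, read 7.17, 6.88 and 6.12 in WT vehicle and 8.10, 7.96 and 7.86 in CKO vehicle, and rose by 1.25 (SE 0.22, adjusted p = 0.00919), a call lost when only the groups compared entered the fit. Coq7, a hydroxylase of coenzyme Q synthesis, rose by 0.56 in CKO vehicle (SE 0.12, adjusted p = 0.0248), a call lost without any 1 of vehicle livers WT 2, WT 3, CKO 3, CKO 4 and CKO 5 (0.0587 to 0.0783) and without the filter. Cycs, cytochrome c itself, differed by -0.0030 and -0.15 in the 2 comparisons and was not called.

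The tricarboxylic acid cycle supplies the chain with NADH and succinate. Of its 18 tested genes, 0 were called in CKO vehicle, with 5 at an unadjusted p under 0.05 (all genes 22.2%), and 2 were called lower in WT CDDO-Im (all genes 1.76%). Idh3a, a subunit of the NAD-linked isocitrate dehydrogenase, read 10.91, 10.97 and 10.97 in WT livers with vehicle and 10.43, 10.39 and 10.35 in those with CDDO-Im. It fell by 0.56 (SE 0.077, adjusted p = 0.00399) and by 0.41 averaged over genotypes (adjusted p = 0.00607). In the same livers Cs, citrate synthase, read 11.41, 11.60 and 11.51 with vehicle and between 10.95 and 11.15 with CDDO-Im. Cs fell by 0.48 in WT CDDO-Im (SE 0.091, adjusted p = 0.0212), a call lost without any 1 of vehicle livers WT 2 and WT 3 and treated livers WT 2 and WT 4 (0.0559 to 0.0859), and when only the groups compared entered the fit. Averaged over genotypes Cs fell by 0.41 (SE 0.064, adjusted p = 0.01). All 6 treated livers lay below all 6 vehicle livers for both genes. The median change of the 18 was -0.030 in WT CDDO-Im, against -0.024 over all genes.

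Other lists held few calls. Of 41 respiratory chain assembly factors outside the Nduf family, 1 was called higher in CKO vehicle (all genes 3.25%). In WT CDDO-Im 1 was called higher and 1 lower (all genes 1.88% and 1.76%). Cmc1, a copper-related factor of complex IV assembly, was higher in both, by 0.37 (adjusted p = 0.0267 and 0.0367), and Coa3, an early complex IV assembly factor, was lower in WT CDDO-Im by 0.39 (-0.39, adjusted p = 0.0334). These 3 calls were lost in 5, 9 and 6 of the 12 fits that each left out 1 liver, up to adjusted p = 0.0809 without CKO vehicle 3 for the first and 0.128 and 0.107 without WT CDDO-Im 4 for the others. Of 76 mitochondrial ribosomal proteins, which translate the mitochondrially encoded subunits, 0 were called in CKO vehicle (6.51% of all genes), with 11 at an unadjusted p under 0.05 (22.2%). In WT CDDO-Im 1 was called, Mrps22 (-0.34, adjusted p = 0.0478), against 3.65% of all genes. That call was lost in 10 of the same 12 fits. Their median change was -0.028 in CKO vehicle and -0.090 in WT CDDO-Im, against -0.0066 and -0.0015 for the oxidative phosphorylation genes, a difference that was not tested.

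Of 21 tested regulators of mitochondrial biogenesis, 1 was called in CKO vehicle (all genes 6.51%) and 0 in WT CDDO-Im (all genes 3.65%). By limma, 2 and 3 had an unadjusted p under 0.05 (all genes 22.2% and 19.6%). Ppara, a nuclear receptor for fatty acid oxidation, fell by 1.02 in CKO vehicle (limma, adjusted p = 0.0434), a call lost in 9 of the 12 fits without 1 liver. Its mean was 11.51 in WT vehicle, 10.49 in CKO vehicle, 10.81 in WT CDDO-Im and 11.33 in CKO CDDO-Im. The treated CKO livers thus did not show the fall. Tfam, which packages and transcribes mitochondrial DNA, differed by -0.097 and 0.096 in the 2 comparisons. Nrf1, nuclear respiratory factor 1, read 5.44 to 5.54, just above the filter. Every treated liver gave the same value, 5.4449 (SD 0 in both CDDO-Im groups), and most vehicle livers did too. Such a repeated low value does not measure a level, although Nrf1 is counted among the 21. Of 12 carriers and uncouplers, 0 were called in either comparison (limma, 5 and 2 at an unadjusted p under 0.05, all genes 22.2% and 19.6%). Averaged over treatments, 3 of the 12 were called lower in CKO livers (5.47% of all genes). Slc25a42, a coenzyme A carrier, fell by 0.58 (SE 0.087, adjusted p = 0.00321) and Slc25a23, an ATP-Mg/phosphate carrier, by 0.37 (adjusted p = 0.00933). Ak4, a mitochondrial adenylate kinase, fell by 0.44 (adjusted p = 0.0387), a call lost in 9 of the 12 fits without 1 liver, up to 0.0899 without CKO vehicle 3. No gene of the mitochondrial genome had a probe set naming 1 gene, so the mitochondrially encoded subunits were not analysed here.

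**Figure D4:**
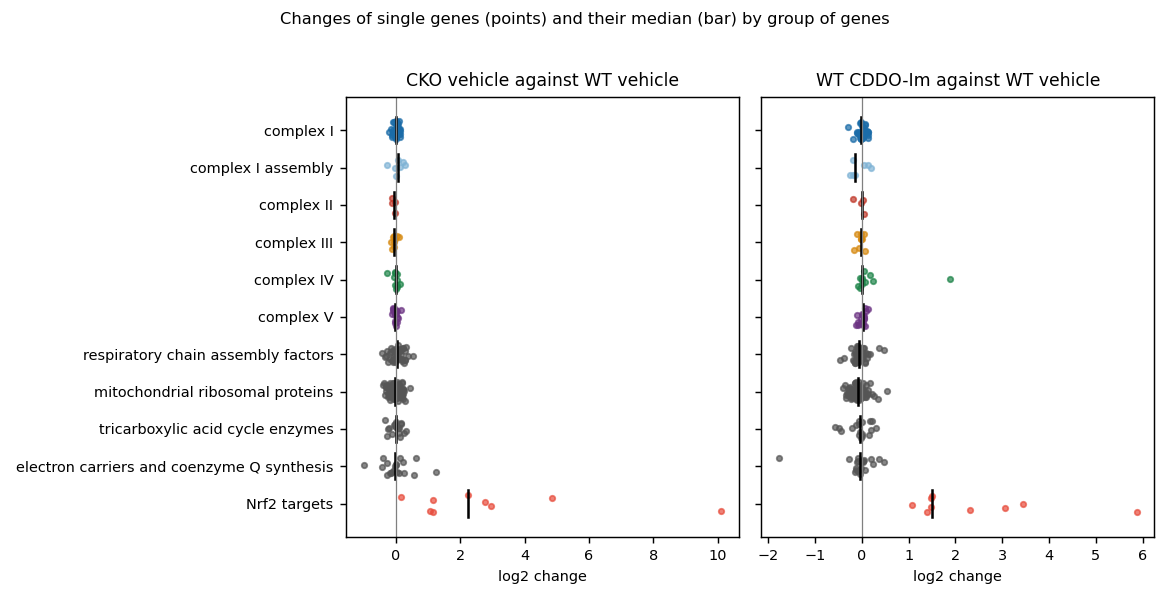
Log2 change of single genes (points) and their median (bar), by complex and for related lists, in CKO vehicle and WT CDDO-Im against WT vehicle. The complexes lie around 0. The Nrf2 targets have a median of 2.25 in CKO vehicle, where the lowest, at 0.15, lies among the points of the complexes. The 1 complex IV point near 1.88 on the right is Cox6b2.

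All 9 hepatocyte markers with a probe set passed the filter, and 0 of them were called in CKO vehicle or WT CDDO-Im (limma, 2 and 0 at an unadjusted p under 0.05), with summed levels of 18.60 to 18.68 across the livers. Adipose and lymphocyte markers were never above 5 (0 of 5 each). Among other cell types Marco, a macrophage receptor, was called higher in CKO vehicle (4.94-fold, adjusted p = 0.0151), and Lyve1, of endothelial cells, in CKO vehicle and WT CDDO-Im (4.71-fold and 5.95-fold, adjusted p = 0.0176 and 0.015). Each was 1 of 6 tested markers of its list, and the median change of the endothelial list was -0.11 in CKO vehicle and -0.026 in WT CDDO-Im. Reln, of stellate cells, was called lower in CKO vehicle (-0.51, adjusted p = 0.0348), 1 of 6 tested with a median of -0.49 (range -0.74 to 0.17). Of the 6, 1 had an unadjusted p under 0.05 (limma). Summed levels of this list, with Dcn the brightest, overlapped at 13.13 to 13.21 in WT vehicle and 13.01 to 13.18 in CKO vehicle. Of all genes 3.25% were called higher and 3.26% lower in CKO vehicle, and 1.88% higher in WT CDDO-Im. Summed levels of macrophage markers overlapped between groups, at 12.63 to 13.47 in WT vehicle, 12.95 to 13.49 in CKO vehicle and 13.05 to 13.25 in WT CDDO-Im. Those of endothelial markers overlapped too, at 11.44 to 11.71, 11.48 to 11.56 and 11.37 to 11.70. Summed erythroid markers were 11.10 to 11.45 with vehicle and 10.92 to 11.38 with CDDO-Im in WT livers, and 9.53 to 11.26 and 9.98 to 10.56 in CKO livers. The treated genotypes did not overlap in this sum, as 22.7% of all genes did not singly. Only 4 of 7 erythroid markers had a probe set, and Alas2 was the brightest. Between the treated genotypes the 2 tested ones changed by -0.81 and -0.0008, with 0 called and 0 at an unadjusted p under 0.05 (limma). The part of these cell types in the values of the subunit genes was not tested.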

How the data were processed

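Liver RNA of 12 mice was measured on 1 Affymetrix array each. The submitters' processing notes name GCRMA 2.12.1 and R 2.7.0 for the deposited log2 values. GCRMA corrects background by probe sequence, normalizes arrays and summarises probe sets, and the settings the authors chose are not stated there. Of 45101 probe sets, 34945 named 1 gene in the platform annotation. The brightest stood for each of 18193 genes, and 8338 with at least 3 arrays above 5 were tested. Precision is limited by the number of arrays.

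Differences came from limma 3.58.1 (R 4.3.3), with 1 mean per group and a common fit of the 12 arrays (8 residual and 2.32 prior degrees of freedom). Tests were two-sided and adjusted by Benjamini-Hochberg over the 8338 genes in each of 7 comparisons. The procedure was tested on simulated data. Full statistics go to the member with the largest change in each complex and comparison, to the called members, to fixed catalytic subunits and to isoform pairs. Other members are named where their groups did not overlap or an alternative called them, chosen after their values were seen. Members, lists and motifs were chosen with earlier results of these data known. Promoter windows came from RefSeq, build GRCm38.p6. Alternatives covered normalization, filters, probe sets, the prior, the arrays in the fit, the replicate number and each array left out.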

Additional observations from a re-analysis of the deposited data

How the results depend on the processing

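Counts of called members moved only between 0, 1 and 2, under the alternatives named here. In WT CDDO-Im against WT vehicle, where 0 were called, the mean of a gene's probe sets gave 2 (Ndufa8 and Ndufab1), every probe set tested on its own gave 1 (Ndufab1) and the mean-variance trend with robust prior gave 1 (Ndufa8). For CKO against WT averaged over treatments, also 0, quantile normalization gave 1 (Cox6a1), the trend with robust prior gave 2 (Cox6a1 and Uqcrb) and leaving out 1 array at a time gave 0 to 1. For CDDO-Im averaged over genotypes, where 1 was called, median centring, no filter and the replicate block each gave 0, the mean of probe sets gave 2, and leaving out 1 array gave 0 to 1. For CKO vehicle against WT vehicle leaving out 1 array gave 0 to 1. The labels do not say what the replicate numbers mark, and whether they pair the livers is not known. Same-numbered livers of different groups correlated at -0.17 to 0.15 in their deviations, with 3 of 12 pairs over 0.1. Livers with different numbers correlated at -0.25 to 0.25, with 8 of 42 pairs over 0.1. A replicate block leaves fewer residual degrees of freedom than the 8 of the main fit. WT vehicle 1 and CKO vehicle 5, whose numbers no other liver carries, then add nothing to the comparisons. With the block, 28 of the 31 calls of single genes named by rule were lost. Among them were Ndufa8 averaged over genotypes (limma, adjusted p = 0.111) and Coq8b in CKO vehicle (0.0524). Gpd2 (0.0561), Idh3a (0.0627) and Cs (0.0816) in WT CDDO-Im were lost too. With the block Ndufaf3 in CKO vehicle turned to -0.030, Ndufs8 in the interaction to -0.070 and Cox6b2 in the interaction to 1.71. The mean of probe sets turned Atp5c1 in the interaction to -0.011. Leaving out 1 array turned the sign of Cox6b2 in 4 comparisons, where its change ran from -1.21 to 1.36 in CKO vehicle, from -2.57 to 0.34 in CKO CDDO-Im against WT CDDO-Im, from -1.43 to 0.25 for CKO averaged over treatments and from -2.29 to 0.63 for the interaction. None of these signs was called, and the cause was not tested. Counts of members with an interval within 1.5-fold, an alternative added after seeing the data, stayed at 68 or more of 80 in every fit without 1 array. Over the 72 changes of single genes named by rule, 1477 alternative values were computed. Of these, 1225 kept their direction and side of the threshold, 233 lost the call, 3 gained it and 16 turned sign. Only the 31 called changes could lose a call, so all 233 losses belong to them. The 1225 include uncalled changes that stayed uncalled. Calls gained by other genes are not in these counts.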

Other observations

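Probe sets that match a subunit gene together with a copy or a neighbour were kept out of all comparisons, and their levels are given here with no test. The probe set shared by Ndufa11 and Ndufa11b read 12.41 to 12.66 across the livers, with group means of 12.54 (WT) and 12.55 (CKO) with vehicle, and 12.55 (WT) and 12.59 (CKO) with CDDO-Im. The one shared by Ndufs6 and Ndufs6b read 11.89 to 12.23, and its mean was 12.01 ± 0.11 (SD, n = 3) in WT vehicle and 12.18 ± 0.073 (SD, n = 3) in WT CDDO-Im. Ndufb4, whose own probe set lay at the floor, read 11.68 to 12.09 on 1 probe set and 11.21 to 11.60 on another, both shared with Ndufb4b and Ndufb4c. The means of the first were 11.80 (WT) and 11.90 (CKO) with vehicle, and 11.96 (WT) and 11.94 (CKO) with CDDO-Im. The probe set shared by Ndufab1 and Ndufab1-ps had means of 12.59 (WT) and 12.64 (CKO) with vehicle, and 12.58 (WT) and 12.69 (CKO) with CDDO-Im.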
